A study of Homo sapiens with 5 samples.

Results

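The S100 proteins examined here are small calcium-binding proteins encoded by S100A2, S100A3, S100A4, S100A6, S100A8, S100A9, S100A10, S100A12, S100A14 and S100P. These 10 genes were chosen by name with earlier results of the same arrays known, so their levels and differences are given as a description without a test. Of the 10, 7 had a feature annotated with their symbol alone, out of 14232 genes with such a feature. These were S100A6, S100A8, S100A9, S100A10, S100A12, S100A14 and S100P, each with a single feature. Below, a gene is called measured if it has a feature annotated with its symbol alone. S100A2, a gene of basal epithelial cells, and S100A3, a gene of the hair cuticle, had no such feature. Nor did S100A4, a binding partner of non-muscle myosin that is associated with metastasis, and the levels of these genes are not analysed here.

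Expression was measured on 5 exon arrays, 1 for each sample, of established human lung cancer cell lines. A549 lacks functional LKB1 through mutation and has a high level of NEDD9, per the submitters. NEDD9 is a focal adhesion scaffold. It was profiled with short hairpin 1 against NEDD9, with short hairpin 2 against NEDD9, and as a control (n = 2 for knockdown, n = 1 for the control). CRL-5907, which the submitters describe as LKB1 wild type with little NEDD9, was profiled with NEDD9 overexpression (n = 1) and as a control (n = 1). The labels do not say what the control cells carried, whether any line is a clone, or whether arrays came from separate cultures.

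S100 proteins form dimers and change shape when calcium binds to their EF-hand loops, which exposes a surface that grips target proteins. Inside cells they act on annexins, the cytoskeleton and signalling proteins, and several are released and bind the receptor for advanced glycation end products (AGER) or TLR4. S100A8 and S100A9 pair to form calprotectin, and with S100A12 they make up the calgranulins, which neutrophils and monocytes hold in large amounts and which inflamed or transformed epithelium can also make. S100P binds ezrin and is made by many carcinomas, S100A14 is a gene of epithelia, S100A6 binds the calcyclin-binding protein CACYBP, and S100A10 has lost calcium binding and serves as the light chain of annexin A2.

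All values are normalised log2 levels or differences between them. The number of arrays limits their precision, and only the hairpins give a spread, written as mean ± SD (n = 2). Both hairpin differences subtract the same A549 control array, which also enters the comparison of the lines, and the CRL-5907 control array is shared by the overexpression difference and the comparison of the lines. As a scale for unreplicated differences, the SD of the difference between the hairpin arrays was taken over genes of similar level. This SD was 0.13 for the brightest genes and includes any true difference between the hairpins. It was taken within A549 and gives no measure of the spread between lines. No detection calls were used, so a level below the median of its array was not shown to exceed background. Counts cover genes whose highest level among the arrays compared exceeded the median of that array, which was 5.85 with hairpin 1, 5.83 with hairpin 2, 5.80 on the A549 control, 5.70 with overexpression and 5.69 on the CRL-5907 control. Levels are compared between arrays within a gene and not between genes.

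NEDD9 itself differed by -0.50 ± 0.12 log2 with the hairpins (SD, n = 2) and by 4.83 log2 with overexpression. All 6 epithelial markers (EPCAM, KRT7, KRT8, KRT18, KRT19 and CDH1) lay above the median on every array. Of 10 measured leukocyte markers no more than 2 lay above the median on any array. The pan-leukocyte marker PTPRC was at a log2 level of 1.72 on all 5 arrays. The summed linear level of these markers ran from 965 to 1055 on the A549 arrays and from 744 to 773 on the CRL-5907 arrays. Most of this sum came from CD68, and without CD68 it ran from 257 to 287 on the A549 arrays and from 301 to 308 on the CRL-5907 arrays, the opposite order. The part of these markers in the calgranulin differences below was not tested. Of 9 fibroblast and endothelial markers none lay above the median on the A549 arrays and 1, COL1A1, did so on the CRL-5907 arrays.

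The comparison of the control arrays asked how A549 differs from CRL-5907. The calgranulins and, by less, S100A14 and S100P were lower in A549, while the levels of S100A6 and S100A10 overlapped between the lines. Of the 7 measured S100 genes, 5 were at least 2-fold lower on the A549 control than on the CRL-5907 control, and none was 2-fold higher. Over all 7716 genes above the median level 5% were 2-fold lower and 9.88% were 2-fold higher. Since this comparison was among the values with which the genes were chosen, nothing is read from the difference between these shares. The median log2 difference was -2.78 over the 7 measured S100 genes and 0.05 over all genes tested.

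S100A8 had log2 levels of 5.85 with hairpin 1, 5.26 with hairpin 2 and 5.18 on the A549 control, against 11.50 with NEDD9 overexpression and 11.60 on the CRL-5907 control. The lines did not overlap, and a gap of 5.65 log2 separated the highest A549 array from the lowest CRL-5907 array. Between the controls S100A8 differed by -6.42 log2, or 85.4-fold lower in A549 as measured, which was the lowest of all 7716 genes. Its A549 control level was below the array median and not shown to exceed background, so this size is not exact. S100A9, its partner in calprotectin, had log2 levels of 6.48 with hairpin 1, 6.13 with hairpin 2 and 6.10 on the A549 control, against 10.99 with overexpression and 11.08 on the CRL-5907 control. It lay above the median on all 5 arrays, and its difference between the controls of -4.97 log2, 31.4-fold lower in A549, ranked 3 from the lowest.

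S100A12, the calgranulin that binds the receptor for advanced glycation end products, had log2 levels of 2.59 with hairpin 1, 2.77 with hairpin 2 and 2.75 on the A549 control, against 7.44 with overexpression and 7.44 on the CRL-5907 control. Its A549 levels were more than 3 log2 units below the median of their arrays, and it passed the level filter only through CRL-5907. The control difference was -4.69 log2, 25.8-fold lower in A549 as measured with the same limit, and ranked 4 from the lowest. The 3 calgranulins thus held 3 of the 4 lowest ranks among 7716 genes. S100A6, S100A8 and S100A14 likewise exceeded the median in this comparison only on the CRL-5907 control, so that passing the filter favoured a difference in that direction.

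**Figure D1:**
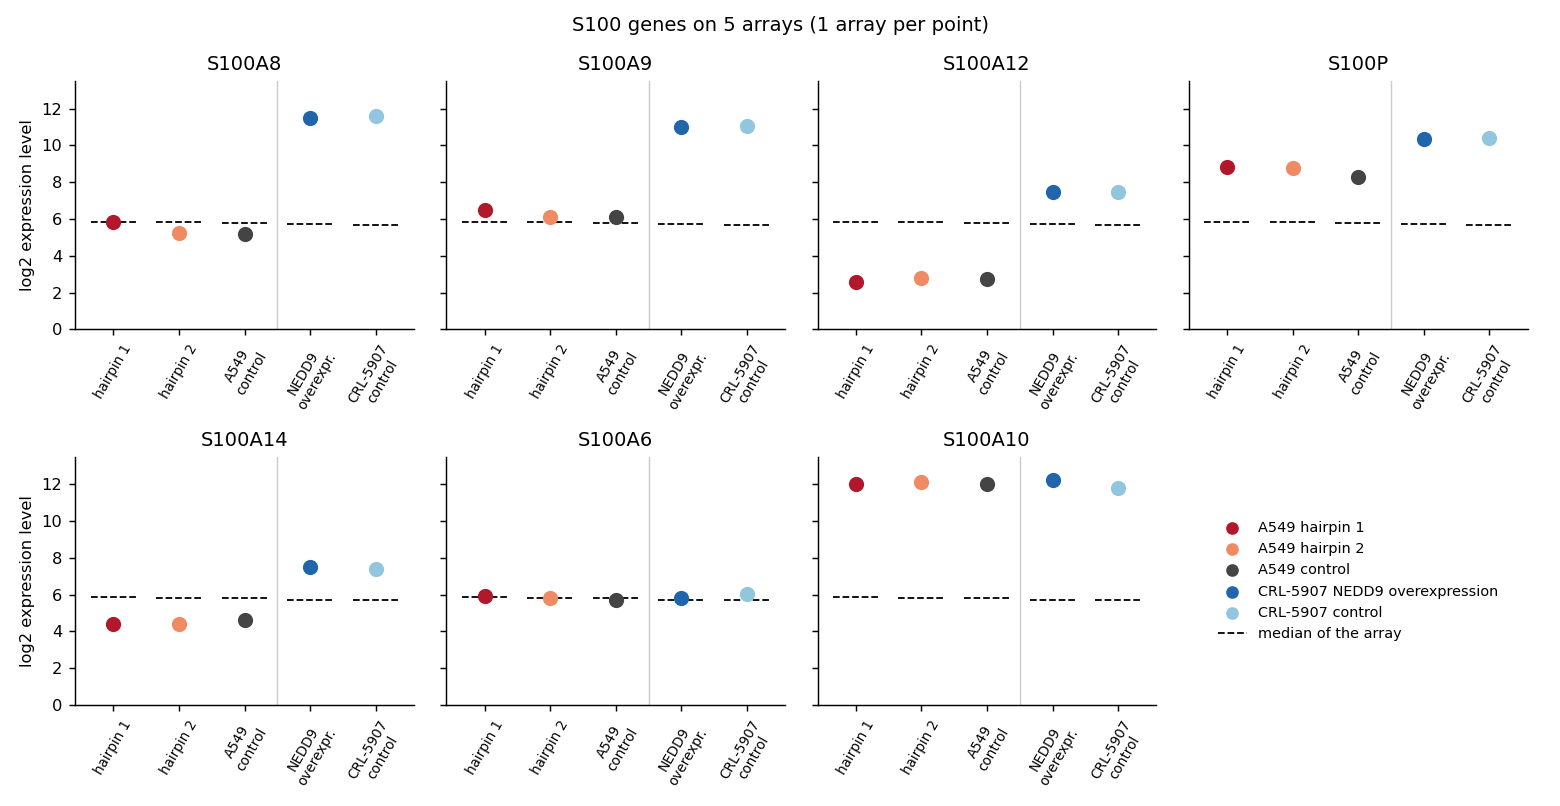
Log2 expression level (vertical axis) of the 7 measured S100 genes on the 5 arrays, 1 point for each array, with A549 to the left of CRL-5907 and the median of each array as a dashed line. S100A8, S100A9, S100A12, S100P and S100A14 lie lower on all 3 A549 arrays than on both CRL-5907 arrays, and S100A6 and S100A10 overlap; heights are not comparable between genes.

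S100P had log2 levels of 8.85 with hairpin 1, 8.76 with hairpin 2 and 8.27 on the A549 control, against 10.34 with overexpression and 10.43 on the CRL-5907 control. Unlike the calgranulins it lay well above the median on the A549 arrays too, by 2.48 log2 on the control. Its difference between the controls was -2.15 log2, 4.44-fold lower in A549, which ranked 104 from the lowest. S100A14 had log2 levels of 4.43 with hairpin 1, 4.40 with hairpin 2 and 4.63 on the A549 control, against 7.48 with overexpression and 7.41 on the CRL-5907 control. All 3 A549 values were below the median of their arrays, and the control difference of -2.78 log2, 6.87-fold lower in A549, ranked 56 from the lowest.

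S100A6 had log2 levels of 5.94 with hairpin 1, 5.82 with hairpin 2 and 5.73 on the A549 control, against 5.82 with overexpression and 6.05 on the CRL-5907 control. These values lay within 0.36 log2 of the array medians and the lines overlapped. Its control difference of -0.32 log2 compares with an SD of 0.17 between the hairpin arrays at that level. S100A10 had log2 levels of 12.04 with hairpin 1, 12.14 with hairpin 2 and 12.04 on the A549 control, against 12.26 with overexpression and 11.81 on the CRL-5907 control. It was more than 6 log2 units above the median on all 5 arrays, the lines overlapped, and the controls differed by 0.24 log2, against an SD of 0.13. After a further quantile normalization the S100A10 difference was 0.08 log2.

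With all 5 arrays, 5 of the 7 genes had every A549 array below both CRL-5907 arrays and none had every A549 array above them. Of 8039 genes above the median on at least 1 array, 26.8% had every A549 array below both CRL-5907 arrays and 40.8% had every A549 array above them. The 5 genes were those that differed by 2-fold between the controls. The smallest gap between the lines among these 5 was 1.49 log2, for S100P, and the largest was that of S100A8.

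**Figure D2:**
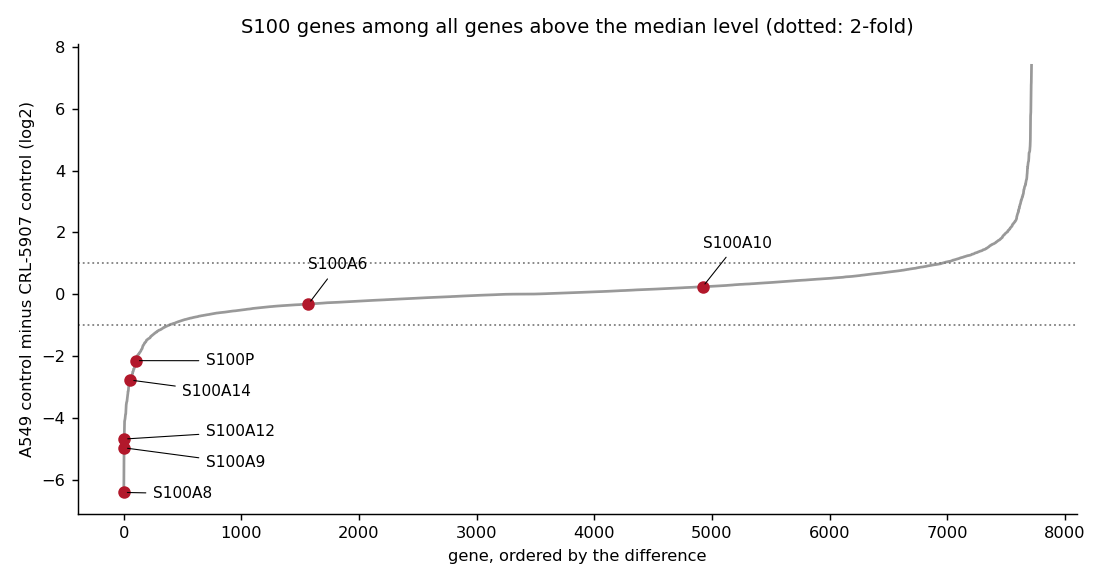
Log2 difference A549 control minus CRL-5907 control (vertical axis) of the 7716 genes above the median level in order of the difference (horizontal axis), with the 7 measured S100 genes as red points and 2-fold as dotted lines. S100A8 is the lowest gene at -6.42, S100A9 and S100A12 rank 3 and 4, and S100A6 and S100A10 lie between the lines.

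Apart from S100P, which lies on chromosome 4, the measured S100 genes described so far lie on chromosome 1 at the epidermal differentiation complex, a cluster that also holds genes of the cornified envelope. In the RefSeq gene table (GRCh38.p14) S100A9, S100A12 and S100A8 follow each other with no other protein-coding gene between them. The cluster from S100A10 to S100A1 held 63 protein-coding genes there, of which 26 were measured, 9 of them S100 genes. The 17 other measured genes differed between the controls by -0.43 to 0.72 log2 (median -0.05), and none of the 5 that passed the level filter reached 2-fold. PGLYRP4, the nearest measured neighbour of S100A9 on the side of the cornified envelope genes, was at 0.09 log2 and below the median in both lines. On the far side of S100A8, S100A6 was at -0.32, S100A16 at -0.77, S100A14 at -2.78 and S100A13 at -0.14 log2. Among the measured genes of the cluster the 2-fold differences were at the adjacent calgranulins and at S100A14. S100A2, S100A3 and S100A4, which lie between S100A8 and S100A14, had no feature annotated with their symbol alone. Most of the 17 other genes did not pass the level filter. S100A16, next to S100A14, missed 2-fold but had every A549 array below both CRL-5907 arrays.

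**Figure D3:**
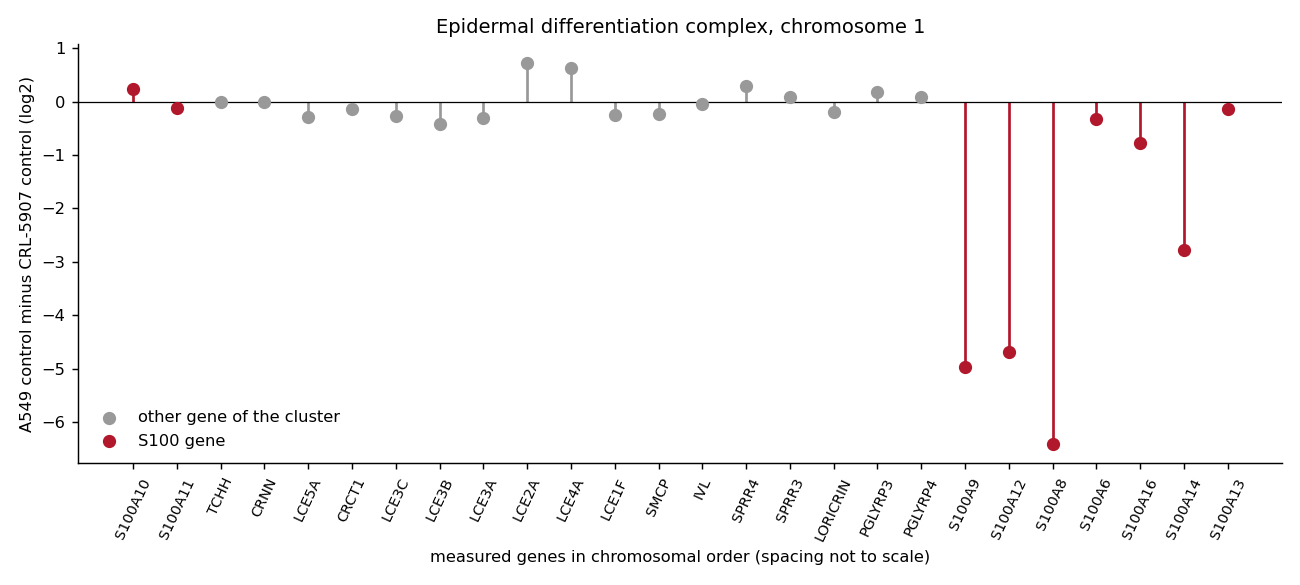
Log2 difference A549 control minus CRL-5907 control (vertical axis) of the 26 measured genes of the epidermal differentiation complex on chromosome 1 in chromosomal order (horizontal axis, spacing not to scale), S100 genes in red and other genes in grey. S100A9, S100A12 and S100A8 lie between -4.69 and -6.42 and S100A14 at -2.78, while the 17 other genes stay between -0.43 and 0.72.

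The promoters of the 5 genes that differed between the lines, and of S100A10 as a gene that did not reach 2-fold, are shown because the genes of the cluster differed side by side by very unequal amounts. Each run is the 250 bases before the transcript start on the gene's strand, from RefSeq (GRCh38.p14), and S100A8 is shown for the middle of its 3 listed starts. Capitals mark the TATA box letters TATAAA.
S100A9, chr1:153357604-153357853, plus strand: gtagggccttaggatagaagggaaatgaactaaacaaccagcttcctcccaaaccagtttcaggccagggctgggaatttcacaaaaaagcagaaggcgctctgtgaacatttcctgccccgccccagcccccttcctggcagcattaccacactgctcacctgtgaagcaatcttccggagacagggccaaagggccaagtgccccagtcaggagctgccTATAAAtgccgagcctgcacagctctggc
S100A12, chr1:153375622-153375871, minus strand: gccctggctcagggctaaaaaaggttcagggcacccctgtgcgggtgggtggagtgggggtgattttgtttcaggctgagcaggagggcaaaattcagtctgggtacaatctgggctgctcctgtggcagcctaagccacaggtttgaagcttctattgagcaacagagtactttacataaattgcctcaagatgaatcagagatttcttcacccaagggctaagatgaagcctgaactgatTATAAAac
S100A8, chr1:153391074-153391323, minus strand: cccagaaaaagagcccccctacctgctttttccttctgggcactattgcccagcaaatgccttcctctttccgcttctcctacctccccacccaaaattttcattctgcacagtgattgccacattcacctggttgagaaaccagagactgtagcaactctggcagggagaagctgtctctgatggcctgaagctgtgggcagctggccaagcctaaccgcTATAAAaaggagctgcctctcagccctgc
S100P, chr4:6693628-6693877, plus strand: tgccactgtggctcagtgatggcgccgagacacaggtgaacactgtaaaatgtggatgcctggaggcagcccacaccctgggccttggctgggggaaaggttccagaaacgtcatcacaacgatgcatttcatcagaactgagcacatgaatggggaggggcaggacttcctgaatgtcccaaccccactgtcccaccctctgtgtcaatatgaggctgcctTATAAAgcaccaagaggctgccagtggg
S100A14, chr1:153616326-153616575, minus strand: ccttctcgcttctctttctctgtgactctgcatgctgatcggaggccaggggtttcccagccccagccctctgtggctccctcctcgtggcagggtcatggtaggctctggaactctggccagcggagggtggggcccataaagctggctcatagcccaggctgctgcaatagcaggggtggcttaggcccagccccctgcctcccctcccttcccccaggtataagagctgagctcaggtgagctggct
S100A10, chr1:151993860-151994109, minus strand: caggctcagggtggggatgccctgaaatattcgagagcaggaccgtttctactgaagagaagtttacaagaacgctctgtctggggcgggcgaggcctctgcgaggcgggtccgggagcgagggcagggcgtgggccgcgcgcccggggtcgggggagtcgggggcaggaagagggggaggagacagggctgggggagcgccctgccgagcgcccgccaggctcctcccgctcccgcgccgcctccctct

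Among the 7 measured genes TATAAA was found on the gene strand in S100A8, S100A9, S100A12 and S100P and not in S100A6, S100A10 or S100A14. It began 29 bases before the start in S100A8 and in S100A9, 28 bases before it in S100P and 8 bases before it in S100A12. Of 35116 windows of the same length 6.80% hold TATAAA on the gene strand and 10.7% on either strand. Within 40 bases of the start 2.44% hold it on the gene strand. The search took these exact letters only. The windows of S100A6 and S100A14 hold TATAAG, which differs in the last letter, close to the start on the gene strand, and it was not counted. The C/EBP letters TTGCNNAA were found in S100A12 alone of the 7 genes, on the other strand 94 bases before the start, and 9.05% of all windows hold them on either strand. The AP-1 letters TGANTCA were also found in S100A12 alone, 57 bases before the start (6.57% of windows). The Sp1 letters GGGCGG occurred in S100A6 at 3 places and once each in S100A10 and, on the other strand, S100A9 (42.6% of windows on either strand). The cyclic AMP response element TGACGTCA (1.65% of windows) and the STAT letters TTCNNNGAA (6.57%) were found in none of the 7. No match overlapped one of another motif. The windows of S100A8, S100A9 and S100A12 held 53.2%, 55.6% and 49.2% G and C, those of S100A6 and S100A10 held 70.0% and 71.2%, and the median of all windows was 58.0%. These matches describe the letters of the windows, and no binding was measured.

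The genes outside the family with profiles most like the 3 calgranulins were found by the root mean square distance between log2 profiles centred on their own mean over the 5 arrays. For S100A8 the nearest was HSD17B2, a steroid dehydrogenase, at a distance of 0.22 log2, followed by TRPS1 (0.81) and CCNA1 (0.87). CCNA1 was unlike S100A8 within CRL-5907, at 9.54 with overexpression and 7.54 on the control, where S100A8 was at 11.50 and 11.60. For S100A9 the nearest genes were TRPS1, a GATA-type transcription factor (0.16), VNN1, a pantetheinase (0.32), and OLFM1 (0.40). For S100A12 they were TRPS1 (0.25), VNN1 (0.28) and ZIC1 (0.33). S100A9 and S100A12 lay 0.20 log2 apart, closer than either lay to S100A8, at 0.65 log2 for S100A9 and 0.74 log2 for S100A12. These profiles consist mainly of the step between the lines. On the A549 arrays all of these genes outside the family, and S100A12, lay below the array median, as did S100A8 on the A549 control. The sizes of their steps, and the distances that follow from them, are therefore not exact.

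The knockdown comparison asked which genes change in A549 when NEDD9 is lowered. No measured S100 gene was 1.5-fold higher or lower with both hairpins, where 0.709% of 7473 genes above the median level were higher and 0.134% were lower. NEDD9 itself did not pass this rule, at -0.59 log2 with hairpin 1 and -0.41 log2 with hairpin 2. The count thus describes a partial lowering of NEDD9 RNA. Of the 7 genes 5 passed the level filter, and S100A12 and S100A14 did not. S100A8 passed by less than 0.001 log2, through the hairpin 1 array. Over the 5 genes that passed, the median log2 difference was 0.37 with hairpin 1 and 0.09 with hairpin 2, against 0.10 and 0.04 over all genes tested. Over all 7 measured genes, with no filter, it was 0.21 with hairpin 1 and 0.08 with hairpin 2.

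S100P came nearest to the threshold, with log2 levels of 8.85 with hairpin 1 and 8.76 with hairpin 2 against 8.27 on the A549 control. Both knockdown arrays lay above the control, by 0.58 log2 (1.49-fold) with hairpin 1 and 0.49 log2 (1.40-fold) with hairpin 2. The mean difference was 0.53 ± 0.06 log2 (SD, n = 2), beside an SD of 0.15 between the hairpin arrays at that level. By this mean S100P ranked 146 from the highest of 7473 genes. Its knockdown levels remained 1.49 log2 or more below both CRL-5907 arrays.

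The hairpins disagreed for calprotectin. S100A8 was higher by 0.67 log2 (1.59-fold) with hairpin 1 and by 0.08 log2 with hairpin 2, a mean of 0.37 ± 0.41 (SD, n = 2). S100A9 was higher by 0.37 log2 with hairpin 1 and by 0.03 log2 with hairpin 2, a mean of 0.20 ± 0.24. In each gene the hairpin 1 array stood above the other A549 arrays, by 0.59 log2 over hairpin 2 for S100A8 and by 0.34 for S100A9, where the SD between the hairpin arrays was 0.19 and 0.18. S100A12 did not share this order, at -0.16 log2 with hairpin 1 and 0.01 with hairpin 2, both from levels far below the array median. Past 1.5-fold with hairpin 1 alone were 2.57% of genes in the higher and 0.535% in the lower direction, and with hairpin 2 alone 1.35% and 0.482%.

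The remaining genes stayed within 0.24 log2 of the A549 control. S100A14 was at -0.20 log2 with hairpin 1 and -0.24 with hairpin 2, S100A6 at 0.21 and 0.09, and S100A10 at -0.01 and 0.09. For S100A10 both values were below the SD of 0.13. For S100A6 the SD was 0.17, which the hairpin 1 value exceeded and the hairpin 2 value did not. For S100A14, whose levels were below the array median, the SD was 0.23, and the hairpin 2 value was just past it. limma, fitted on all 7473 genes, called none at a Benjamini-Hochberg adjusted p under 0.05 (the lowest was adjusted p = 0.276), and 1309 genes, or 17.5%, had an unadjusted p under 0.05. This fit has 1 residual degree of freedom and assumes that the lone control varies like the hairpin arrays. Of the genes past 1.5-fold with both hairpins 84.1% were higher, and after a further quantile normalization 69.0%.

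**Figure D4:**
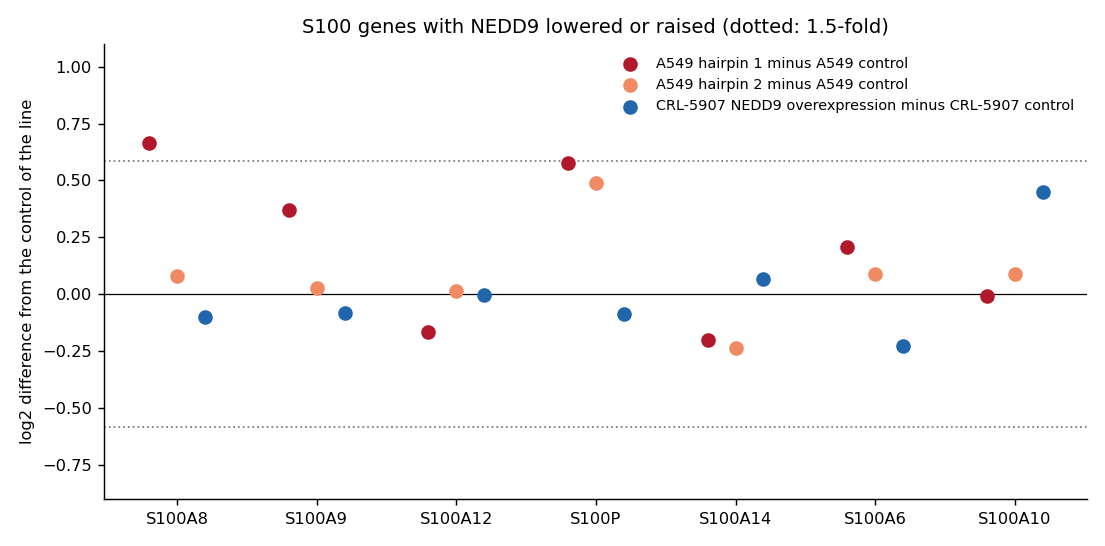
Log2 difference (vertical axis) between each manipulated array and its control for the 7 measured S100 genes, with hairpin 1 in red, hairpin 2 in orange, NEDD9 overexpression in blue and 1.5-fold as dotted lines. S100A8 with hairpin 1 (0.67) is the only point past 1.5-fold, S100P is at 0.58 and 0.49 with the hairpins, and S100A10 is at 0.45 with overexpression.

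The overexpression comparison asked which genes change in CRL-5907 when NEDD9 is raised. No measured S100 gene reached 1.5-fold, where 3.50% of 7406 genes above the median level were higher and 0.851% were lower, and all 7 passed the level filter. The comparison has 1 array in each condition, so no test was made. The median log2 difference over the 7 genes was -0.08, against 0.05 over all genes tested.

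The genes that are high in CRL-5907 stayed near their control levels. S100A8 was at -0.10 log2, S100A9 at -0.08, S100A12 at 0.00, S100P at -0.09 and S100A14 at 0.07 log2. Each of these 5 values was below the SD between the A549 hairpin arrays for genes of the same level, 0.13 to 0.15. No such SD could be measured in CRL-5907. S100A10 had the largest difference of the 7 genes, with a log2 level of 12.26 on the overexpression array and 11.81 on the control, a difference of 0.45 log2 or 1.37-fold. It ranked 485 from the highest of 7406 genes, and the A549 hairpin SD at that level was 0.13. S100A6 was at -0.23 log2, beside a hairpin SD of 0.17. Of the genes past 1.5-fold 80.4% were higher, and after a further quantile normalization 62.9%.

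Other genes of the family and its partners were taken from lists. Of 11 other S100 genes 6 were measured, and S100A13 and S100A16 alone passed the level filter in all 3 comparisons. None reached the fold threshold in any of them, and limma called 0 of 2 with knockdown (1 had an unadjusted p under 0.05). S100A16, a dimerizing S100 protein of many tissues, was at -0.77 log2 between the controls, at 0.24 with hairpin 1 and 0.26 with hairpin 2, and at 0.12 when NEDD9 was raised. S100A13, which takes part in the release of growth factors that lack a signal peptide, was at -0.14 log2 between the controls, at 0.07 with hairpin 1 and -0.12 with hairpin 2, and at -0.22 when NEDD9 was raised. Of 7 S100-fused proteins of the epidermis, such as cornulin (CRNN), 2 were measured and neither passed the filter.

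Of 18 receptors and binding partners of S100 proteins 16 were measured and 11 passed the filter in each comparison. Of these 11, ALCAM, a cell adhesion molecule, was the only one past 2-fold between the controls, higher in A549 by 1.27 log2. With knockdown 0 of 11 passed 1.5-fold with both hairpins, and limma called 0 of 11 at an adjusted p under 0.05 (2 had an unadjusted p under 0.05). The furthest from the A549 control were CACYBP, the partner of S100A6 (0.56 with hairpin 1 and 0.32 with hairpin 2), EZR, which encodes the S100P partner ezrin (0.22 and 0.40), ALCAM (0.27 and 0.22) and ANXA2, the partner of S100A10 (0.19 and 0.19). With overexpression 0 of 11 passed 1.5-fold. The furthest were ANXA1 (0.44), ALCAM (0.31), ANXA2 (0.31) and BSG, which encodes basigin (-0.19). The receptors AGER and TLR4 did not pass the level filter in any comparison. TLR4, named here after its values were seen, had log2 levels of 3.16 with hairpin 1, 3.26 with hairpin 2 and 3.10 on the A549 control, against 5.50 with overexpression and 4.88 on the CRL-5907 control. It was below the array median throughout, and its difference was -1.78 log2 between the controls and 0.62 log2 with overexpression.

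A list of 16 symbols for cornified envelope genes of the complex gave 7 measured genes. It held loricrin as LORICRIN and under the older symbol LOR, and also PGLYRP3 and PGLYRP4, which encode peptidoglycan recognition proteins. Other measured genes of the cluster, such as LCE5A, LCE3A and LCE3B, were not on it. With overexpression 1 of the 2 listed genes that passed the filter exceeded 1.5-fold, LCE2A at 0.59 log2. None of the list passed 1.5-fold with both hairpins or 2-fold between the controls, where LCE2A was at 0.72 log2. Among the epithelial markers EPCAM was more than 2-fold lower on the A549 control (-1.44 log2), while the other 5 were higher there by 0.45 to 0.99 log2. No epithelial, leukocyte, fibroblast or endothelial marker that passed the filter exceeded 1.5-fold with both hairpins or with overexpression. limma called 0 of 6 epithelial, 0 of 2 leukocyte and 0 of 1 cornified envelope genes with knockdown, with 0 at an unadjusted p under 0.05 in each list. CD14, a leukocyte marker that passed the filter, was at -0.39 log2 with hairpin 1 and -0.84 with hairpin 2. CD68, which also passed, was at 0.06 and -0.06. The median over the 10 measured leukocyte markers was -0.09 log2 with hairpin 1 and -0.04 with hairpin 2. LYZ, a leukocyte marker named after its values were seen, had log2 levels of 5.55 with hairpin 1 and 5.34 with hairpin 2 against 3.55 on the A549 control, all below the median of their arrays. Its part in the S100A8 difference with hairpin 1 was not tested.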

How the data were processed

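Total RNA isolated with Trizol was depleted of ribosomal RNA, amplified, labelled with biotin and hybridised to 1 array for each sample, per the labels' protocols. The authors deposited log2 values for 22011 features. The submitters' processing notes name RMA and Affymetrix Power Tools and give no version. The log2 scale was taken from the values. The genome build is not given in the sources used here. RMA normalizes the arrays together, and differences of dim features can be understated.

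Samples were grouped by title (1 description names NEDD10 where its title says NEDD9). Features were named by the platform annotation: 14432 had 1 symbol and were used, 2408 had several and 5171 were unnamed here. By Entrez number 14404 matched the RefSeq gene table. A gene took its brightest feature by mean over the 5 arrays. Differences between arrays were computed in Python 3.11.15 and called at 2-fold between lines and 1.5-fold with manipulation, with both hairpins for knockdown. For knockdown, limma 3.58.1 (R 4.3.3) was run with lmFit and eBayes, the prior variance following level. The SD between the hairpin arrays was taken in 20 bins of level. The fold rules and limma were also run on simulated data, and nothing here rests on the outcome.

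The members and lists were chosen with earlier results of these data known, and the promoter motifs after the values were seen. Named genes were all members, NEDD9, list genes past the fold threshold or otherwise the 4 furthest that passed the filter, and the 3 genes most like each of the 3 members of widest range.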

Additional observations from a re-analysis of the deposited data

How the results depend on the processing

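The count of 5 S100 genes lower in A549 than in CRL-5907 was also 5 with arrays centred on their medians, after a further quantile normalization and with a filter at the 75th percentile. Averaging features, dropping the filter or lowering the threshold could not reduce it. The count of 0 with overexpression was 0 after the same rescalings. Dropping the filter could not change it, since all 7 measured genes already passed. The count of 0 with knockdown ran from 0 to 1 when either hairpin was left out, the 1 being S100A8 with hairpin 1 alone. Of 56 single differences of the 7 genes recomputed after centring or quantile normalization, 55 moved by less than the SD between the hairpin arrays, no difference past its threshold changed sign, and the largest shift was 0.16 log2, that of S100A10 between the lines. Centring moved the median difference of all genes between the lines by -0.11 log2.

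Counts over all genes depended on the filter and threshold by construction. Between the lines 1148 genes were past 2-fold, 764 with the filter at the 75th percentile and 2353 past 1.5-fold. With knockdown there were 63 genes, 156 without a filter, 23 with the stricter filter, 5 past 2-fold, and 137 to 232 with either hairpin alone. With overexpression there were 322 genes, 605 without a filter, 185 with the stricter filter and 58 past 2-fold. limma called 0 genes in all 4 alternatives run (no filter, no trend, quantile normalization, all 5 arrays). No limma fit was made with a hairpin left out, since no residual degree of freedom remains. No paired analysis was possible because the control groups hold 1 array each, so groups share fewer than 2 replicate numbers. Each S100 gene had 1 feature, so probe disagreement could not be examined, and signal over background was not known.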
